A study of Homo sapiens with 6 samples.

Results

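Complement was represented here by 9 human genes, which were found by symbol among the 40173 genes of the count table. They were the components C1R, C1S, C3, C5 and CFB, the soluble regulator CFI, and the membrane regulators CD46, CD55 and CD59. All 9 had counts, and 7 passed the filter on low counts. The counts came from A549, a line of human lung adenocarcinoma cells that had been transfected with siRNA directed at the long noncoding RNA FAM83H-AS1 (the silenced group) or with a negative control siRNA (the control group). RNA was taken 24 h after transfection, and each group had 3 libraries. All libraries came from a single cell line, the sources used here do not say which of the study's siRNAs was used, and nothing states that the libraries came from separate cultures, so that the p-values measure only the spread between these samples, which may be technical.

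Complement is a cascade of proteases that coats a target surface with fragments of C3 and can end in a pore through the membrane. The classical pathway starts with the C1 complex, in which C1R activates C1S, and the alternative pathway runs through factor B (CFB), which binds C3 fragments and is cut by factor D (CFD) to form an enzyme that cuts more C3. Host cells limit the cascade with CD46, which helps factor I (CFI) to cut C3 and C4 fragments, with CD55, which speeds the decay of the enzymes that cut C3, and with CD59, which stops the pore from forming. The liver makes most complement of the plasma, and epithelial cells of the lung make part of the local supply.

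Silencing went with a higher level of 2 of the 7 tested members, CFB and CD59. CFB rose 2.36-fold and CD59 rose 1.27-fold, whereas C3, C1R, C1S, CD46 and CD55 did not pass the test. Across all 15250 tested genes, 17.0% passed the same test in either direction, 8.75% were higher and 8.27% were lower, where passing means an adjusted p under 0.05 in the edgeR quasi-likelihood test. With the additional demand of a fold change over 2, which CFB met and CD59 did not, the share over all tested genes was 2.14%. The silenced and control values of CFB and CD59 did not overlap, a state found in 36.6% of the tested genes. These are bulk measurements, in which fewer cells of a type and less RNA per cell cannot be told apart.

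The promoter of CFB is shown first, since CFB had the largest difference of the set. The GAS stretch before a RefSeq start of CD59 and of C1R is shown with it. These starts differ from the GENCODE gene bounds given below, and the stretches of CFB and C1R lie inside those bounds. Capitals mark a match to a word that is known as the binding site of a class of transcription factors, or to the TATA box. The sequences were taken from RefSeq promoters on GRCh38.p14 and are printed 5′ to 3′ on the strand of the gene.
CFB, ISRE word, chr6:31945945-31945974, plus strand: acttctgcagTTTCTGTTTCcttgactggc
CFB, GAS word, chr6:31945993-31946022, plus strand: cgcttggatgTTCCGGGAAagtgatgtggg
CFB, TATA box, chr6:31946053-31946082, plus strand: gaacacagattgTATAAAaggctgggggct
CD59, GAS word, chr11:33736588-33736617, minus strand: ccacccggccTTCTCAGAAcctgggccagg
C1R, GAS word, chr12:7091960-7091989, minus strand: gccagtcctaTTCCTGGAAggggaggggag

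The words were searched from 250 bases before to 50 bases after each annotated start, in 35116 promoters of 27305 genes. C5, CFB, CFI, C1R, CD46, CD55 and CD59 had promoters among them. The interferon-stimulated response element (ISRE), written as GAAA, 2 bases of any kind and GAAA again, was searched on both strands and stood in 3.57% of all promoters and in a promoter of 4.38% of all genes. Among the 7 members with a promoter it was found for CFB alone, on the opposite strand, at bases -140 to -131 from the start. The palindromic word TTCNNNGAA, the gamma-activated sequence (GAS) that STAT factors bind, stood in 7.66% of all promoters, in a promoter of 9.38% of all genes, and in promoters of CFB, C1R and CD59. CFB had 1 promoter, C1R had 2 and CD59 had 4, and a gene with more promoters has more chances of a match. The GAS word lay at bases -92 to -84 of CFB and, in only 1 of the 2 promoters of C1R, at -86 to -78. In CD59 a single site lay at -128 to -120 or at -184 to -176, depending on which of 2 annotated starts is taken.

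A kappaB site, the target of NF-kB, was searched on both strands and stood in 11.3% of all promoters, in a promoter of 13.3% of all genes and, within the set, at bases -112 to -103 of CFB alone. A C/EBP word, TTGCNNAA, was searched on both strands, stood in 10.5% of all promoters and in a promoter of 12.7% of all genes, and was found for C1R and CD59. A TATA box, TATAAA, searched on the gene's strand only, stood in 7.33% of all promoters, in a promoter of 8.99% of all genes, and at bases -30 to -25 of CFB. None of these matches in CFB overlapped another. A match is a stretch of letters and does not show that a factor binds there.

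**Figure D1:**
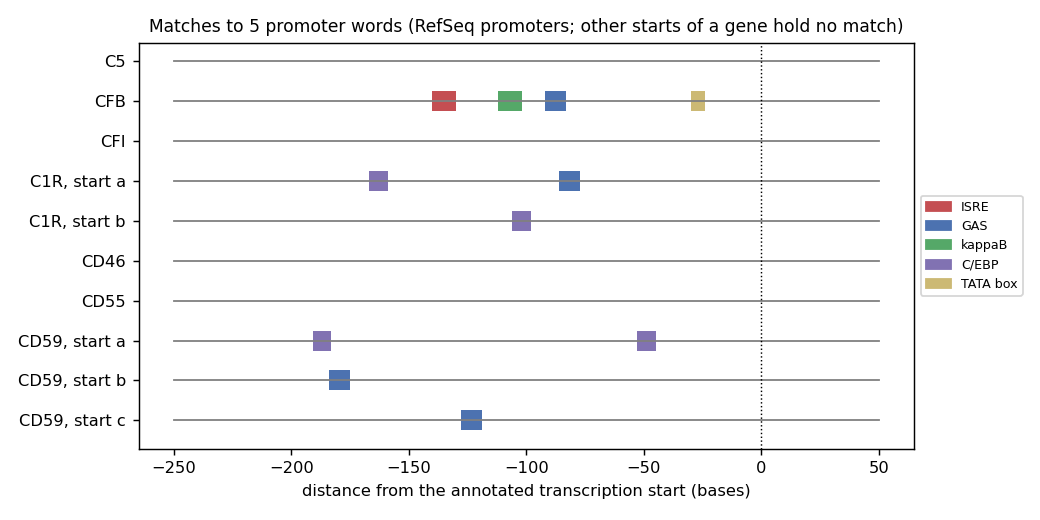
Positions of the 5 promoter words in the promoters of 7 complement genes; the horizontal axis gives the distance from the annotated transcription start in bases, and each coloured block is a match. Each grey line is 1 promoter with a match, or stands for all promoters of a gene without one. Promoters without a match in a gene that has one elsewhere are not drawn. CFB holds 4 matches between -140 and -25, CD59 and C1R hold GAS and C/EBP matches, and C5, CFI, CD46 and CD55 hold none.

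The library totals ranged from 9738291 to 17742643 counts, with 21021 to 22202 genes detected per library. FAM83H-AS1 itself had 14.5, 16.0 and 17.3 CPM (counts scaled to the library size with edgeR's normalization factors) in the control libraries and 4.59, 4.44 and 5.58 CPM in the silenced libraries, a log2 fold change of -1.70 (SE 0.148, edgeR adjusted p = 7.99e-05). Control replicate 3 stood apart because RNA5-8SP6, a pseudogene of ribosomal RNA, held 3.22% of its counts, against 0.241% to 0.448% in the other libraries. Without it, CFB had a log2 fold change of 1.29 and CD59 of 0.35, and both still passed the test. The A549 identity was taken from the study, and 10 genes listed as markers of A549 epithelial cells were read, of which 9 were tested. The keratins KRT8, KRT18 and KRT7 had 1863, 1316 and 1413 CPM in the control group. AKR1C1 and ALDH3A1 had 96.3 and 11.5 CPM there and EPCAM had 3.86 CPM. KRT19, CDH1 and AKR1B10 had under 1 CPM in the control group, and ALDH1A1 was at 0 counts in 5 of 6 libraries. With some markers high and others nearly absent, the list does not settle the A549 label. The summed level of the 10 genes was 4512 to 4871 CPM in the control and 3652 to 3689 CPM in the silenced libraries, with KRT7, KRT18 and ALDH3A1 lower by the test. AKR1B10 had 9, 9 and 14 counts in the control and 25, 19 and 28 counts in the silenced libraries. It entered the test through the silenced group, where it was high, and did not pass without silenced replicate 1 (edgeR adjusted p = 0.0671). The part of this shift in the results below was not tested.

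Of all counts in a control library, the 9 genes together took 0.174%, 0.191% and 0.188%, and of those in a silenced library 0.205%, 0.211% and 0.203%. C3 alone made up 45.6% to 50.5% of the counts of the set. To compare levels between genes, CPM was divided by the length of all annotated exons in kilobases. On this scale the control means ran from C3 (109 CPM per kb) through CD55 (49.8), CD46 (30.7), CD59 (24.3), CFB (11.8), C1R (7.85) and C1S (6.83) to C5 (0.158) and CFI (0.0501). The control ranges of C1R (7.35 to 8.60) and C1S (5.71 to 7.90) overlapped, and those of all other neighbours down to C1S did not.

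In the silenced group the order of the means was the same except that CD59, at 30.9 CPM per kb, changed places with CD46, at 30.3. Their ranges, 29.2 to 31.7 for CD59 and 29.7 to 30.9 for CD46, overlapped, whereas in the control group CD46 had been above CD59 in every library. CFB moved to 27.9 CPM per kb (range 27.2 to 29.1), below the lowest CD46 and CD59 values, so that it kept its place in the order.

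**Figure D2:**
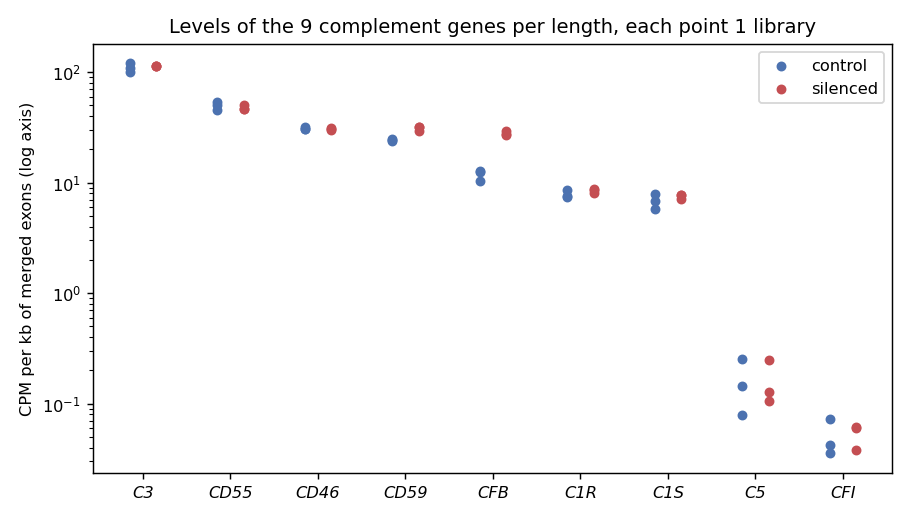
Levels of the 9 complement genes in CPM per kb of merged exons, on a log axis; each point is 1 library, blue for control and red for silenced. C3 was highest at about 109 CPM per kb in the control group, CFB rose from 11.8 to 27.9, and C5 and CFI lay below 0.3 in every library.

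CFB, the protease of the alternative pathway, had 51.7, 61.8 and 63.4 CPM in the control libraries and 145, 136 and 137 CPM in the silenced libraries. The lowest silenced value was above the highest control value by more than the whole spread of either group. The means were 59.0 ± 6.32 and 139 ± 5.17 CPM (SD, n = 3), giving a log2 fold change of 1.24 (SE 0.0888, 95% interval 1.04 to 1.43, edgeR adjusted p = 2.38e-05). By p-value CFB ranked 11 of the 15250 tested genes, and 108 of them had a higher log2 fold change. The gene lies at chr6:31945650-31952084 on the plus strand (GENCODE 29, GRCh38). It overlaps C2 and a readthrough gene, AL645922.1, on the same strand, and how the counting treated reads shared by overlapping genes is not given in the sources used here.

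C2, which is next to CFB and is its counterpart in the classical pathway, had 31, 33 and 29 counts in the control and 43, 44 and 53 counts in the silenced libraries. Its log2 fold change of 0.69 (95% interval 0.12 to 1.26) did not pass the test (edgeR adjusted p = 0.0933), and its counts in the silenced libraries compare with 1468 to 1841 for CFB. Within 100 kb of CFB, 8 other genes were tested, a window chosen after the values of CFB were seen. NEU1 was higher by 0.33 and EHMT2 was lower, at -0.42, on the log2 scale, and the other 6 did not pass. Of all tested genes, 17.0% passed.

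C3, the central component, on which all pathways meet, had 829, 897 and 995 CPM in the control and 937, 942 and 941 CPM in the silenced libraries. All 3 silenced values lay within the control range. The means were 907 ± 83.5 and 940 ± 2.86 CPM (SD, n = 3), with a log2 fold change of 0.051 (SE 0.0768, edgeR adjusted p = 0.687). The 95% interval, -0.12 to 0.22, leaves room for a rise or a fall of that size and lies wholly below the lower bound for CFB. Counted within each library, there were 6.24, 6.89 and 6.37 CFB counts per 100 C3 counts in the control and 15.5, 14.4 and 14.5 in the silenced libraries. The ratio did not overlap between the groups (exact permutation test, two-sided, p = 0.1, the smallest that 3 against 3 libraries allow). The C3 gene lies at chr19:6677704-6730562 on the minus strand and overlaps GPR108.

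C1R and C1S, the paired proteases of the C1 complex, lie 9167 bases apart on chromosome 12. C1R, at chr12:7080199-7092607 on the minus strand, had 43.3, 44.6 and 50.6 CPM in the control and 50.7, 51.6 and 47.0 CPM in the silenced libraries. C1S, at chr12:6988259-7071032 on the plus strand, had 36.9, 44.4 and 51.0 CPM in the control and 49.99, 46.2 and 49.4 CPM in the silenced libraries. For both genes the groups overlapped. The log2 fold change was 0.10 for C1R (95% interval -0.087 to 0.29, edgeR adjusted p = 0.449) and 0.13 for C1S (95% interval -0.11 to 0.37, edgeR adjusted p = 0.445). The ratio of the pair, in C1R counts per 100 C1S counts, was 106 ± 10.1 in the control and 103 ± 8.36 in the silenced group (SD, n = 3, exact permutation test, two-sided, p = 0.7). C1R overlaps C1RL, and C1S overlaps EMG1 and LPCAT3.

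C5, which starts the terminal pore, and CFI, the protease that cuts C3 and C4 fragments, were near the limit of detection. C5 had 5, 19 and 16 counts in the control and 7, 9 and 22 counts in the silenced libraries. CFI had 2, 2 and 6 counts in the control and 3, 2 and 4 counts in the silenced libraries. The groups overlapped for both genes, and both fell below the filter on low counts. In a fit over all 25864 genes with at least 1 count, C5 had a log2 fold change of 0.036 with a 95% interval of -0.79 to 0.86 (edgeR adjusted p = 0.983), so that a difference of up to about that size was not detectable at this depth. For CFI, with 10 counts in the control and 9 in the silenced group, no fold change is given. C5 lies at chr9:120952335-121050276 and CFI at chr4:109740694-109802179, both on the minus strand.

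**Figure D3:**
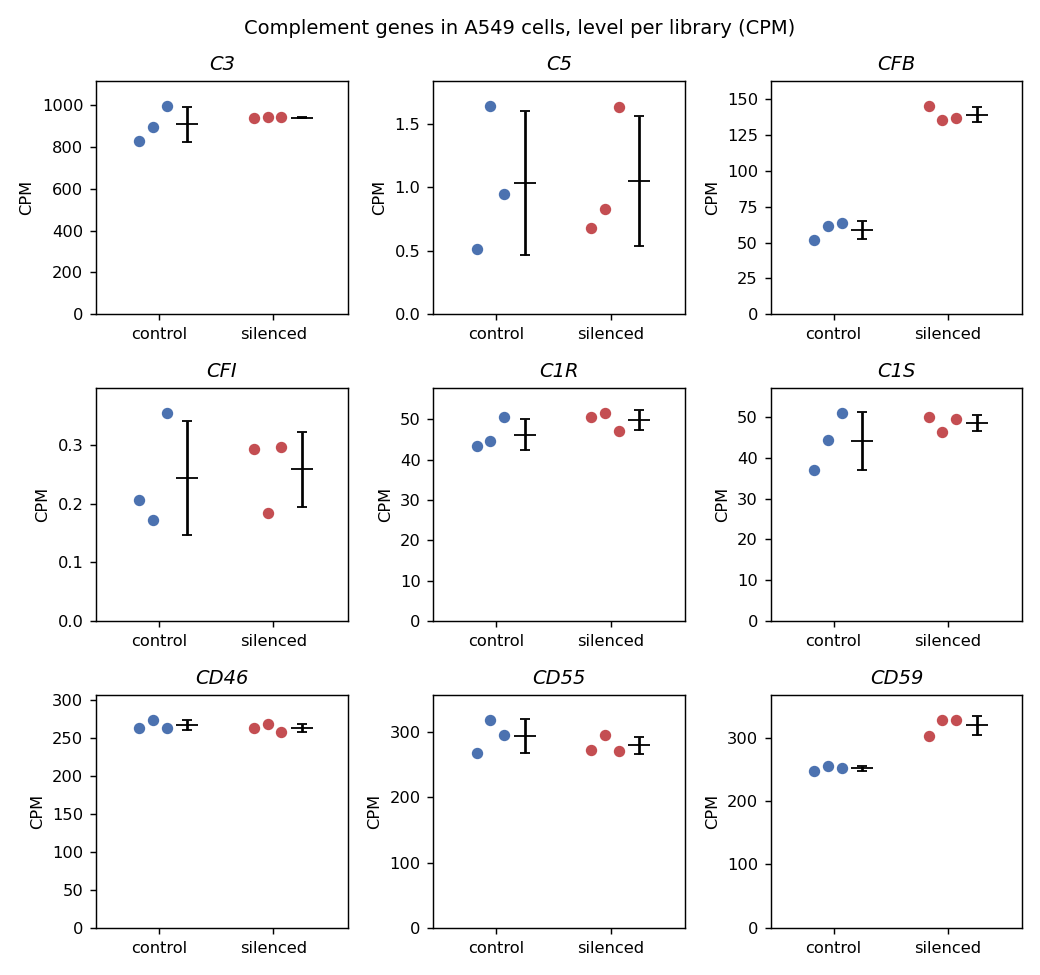
Level of each of the 9 complement genes in CPM (vertical axes, which start at 0 and differ between panels); each point is 1 library, blue for control and red for silenced, and the black bar gives the mean and SD (n = 3). The groups are apart for CFB (51.7 to 63.4 against 136 to 145 CPM) and CD59 (247 to 256 against 303 to 328 CPM) and overlap in the other 7 panels.

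CD59, a protein held on the cell surface by a glycosylphosphatidylinositol (GPI) anchor that blocks the terminal pore, had 247, 256 and 252 CPM in the control and 303, 327 and 328 CPM in the silenced libraries. All silenced values were above all control values. The means were 252 ± 4.52 and 319 ± 14.6 CPM (SD, n = 3), giving a log2 fold change of 0.35 (SE 0.0666, 95% interval 0.20 to 0.49, edgeR adjusted p = 0.00639). The rank of CD59 by p-value was 670 of 15250. The gene lies at chr11:33703010-33736491 on the minus strand and overlaps AL049629.2 on the same strand. The only other tested gene within 100 kb, FBXO3, had a log2 fold change of 0.052 (edgeR adjusted p = 0.804).

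CD46, the cofactor of factor I, and CD55, which takes apart the enzymes that cut C3, lie 365253 bases apart on chromosome 1, at chr1:207752057-207795513 and chr1:207321376-207386804, both on the plus strand. CD46, which spans the membrane, had 264, 275 and 263 CPM in the control and 263, 269 and 258 CPM in the silenced libraries. CD55, which has a GPI anchor as CD59 does, had 268, 319 and 295 CPM in the control and 273, 295 and 271 CPM in the silenced libraries. The groups overlapped for both genes. The log2 fold change was -0.020 for CD46 (95% interval -0.16 to 0.12, edgeR adjusted p = 0.868) and -0.072 for CD55 (95% interval -0.25 to 0.10, edgeR adjusted p = 0.567). For CD46, the upper bound lies below the lower bound for CD59.

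Within each library, there were 93.6, 93.1 and 95.7 CD59 counts per 100 CD46 counts in the control and 115, 122 and 127 in the silenced libraries. Against CD55 the figures were 92.2, 80.1 and 85.3 in the control and 111, 111 and 121 in the silenced libraries. Neither ratio overlapped between the groups (exact permutation test, two-sided, p = 0.1 for each, the smallest possible), whereas CD55 per 100 CD46 counts did, at 110 ± 7.62 and 106 ± 3.17 (SD, n = 3, exact permutation test, two-sided, p = 0.5). Over the 6 ratios computed within the set, these 2 and the 2 of CFB to C3 and to C1S were the ones without overlap. Each of them sets a member that passed the test over a member that did not. They therefore restate those differences and are no separate evidence.

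Another 49 complement genes were listed: 23 components, 17 regulators and 9 receptors. Of these, 18 had 0 counts in all libraries and 14 were tested. Of the 14, 5 were higher and 2 were lower, against 8.75% and 8.27% of all tested genes. The genes of classical and lectin recognition, the later pore components other than C8G, and most soluble regulators were not tested, so that the 14 are those whose counts passed the filter.

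Among the components, factor D (CFD), which cuts CFB, fell from 25.1 ± 1.55 to 19.5 ± 1.82 CPM (SD, n = 3), giving a log2 fold change of -0.37 (SE 0.105, edgeR adjusted p = 0.0357). This call was lost when any library other than silenced replicate 1 was left out (adjusted p up to 0.0967). C1RL, a relative of C1R, had a log2 fold change of 0.44 (edgeR adjusted p = 0.0523, or 0.0267 with the replicate number as a block). C8G, a part of the pore, had 8, 8 and 20 counts in the control and 20, 15 and 23 counts in the silenced libraries, so that it entered the test through the silenced group, and did not pass (edgeR adjusted p = 0.0956). C2, C1RL, C8G and the regulators named below that did not pass were picked after their values were seen.

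Among the regulators, 3 of 6 tested were higher and 1 was lower, against 8.75% and 8.27% of all tested genes. Clusterin (CLU) and vitronectin (VTN), which bind the terminal complex in solution, rose by 0.30 and 0.45 on the log2 scale (edgeR adjusted p = 0.0120 and 0.0240). CLU had 889 ± 14.7 CPM in the control and 1091 ± 40.7 CPM in the silenced group (SD, n = 3). C1QBP, a mitochondrial protein that can bind C1q, fell by 0.29 on the log2 scale (edgeR adjusted p = 0.0152). C4BPB, a chain of the C4b-binding protein, had a log2 fold change of -0.21 (edgeR adjusted p = 0.113, or 0.0490 with the replicate block). C4BPA, the other chain, had 11, 8 and 10 counts in the control and 12, 16 and 28 counts in the silenced libraries. C4BPA entered the test through the silenced group, where it was higher, and did not pass (edgeR adjusted p = 0.0773).

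Among the receptors, the integrin chains ITGAX and ITGB2, which together form complement receptor 4 of leukocytes, were higher. ITGAX had 2.26, 2.59 and 2.48 CPM in the control and 4.98, 5.83 and 5.13 CPM in the silenced libraries, a log2 fold change of 1.11 (SE 0.203, edgeR adjusted p = 0.00502). ITGB2 rose from 21.5 ± 0.636 to 33.8 ± 7.15 CPM (SD, n = 3), giving a log2 fold change of 0.65 (edgeR adjusted p = 0.0109), with silenced replicate 2, at 25.6 CPM, the nearest to the control. ITGAM, the other partner of ITGB2, had 1 to 7 counts per library. Of the receptors for the C5 fragment, C5AR1 had a log2 fold change of 0.042 and C5AR2 of -0.0019, and neither passed.

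A list of 10 leukocyte markers was read beside these receptors. CD3E, CD3D, MS4A1 and LYZ were at 0 counts in every library, and PTPRC, which all leukocytes carry, had at most 1 count. The summed level was 125 to 143 CPM in the control and 227 to 256 CPM in the silenced libraries. Nearly all of it was CD68, which rose from 130 ± 9.31 to 239 ± 14.7 CPM (SD, n = 3, log2 fold change 0.88, edgeR adjusted p = 9.93e-05). CD68 codes for a lysosomal protein that other cells express too, and its part in the receptor result was not tested.

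Leaving out silenced replicate 1 reduced the 7 calls among these 49 genes to 2, CFD and ITGAX, with CLU, VTN, C1QBP and ITGB2 between adjusted p = 0.0528 and 0.0769. VTN was also lost without control replicate 1, control replicate 2 or silenced replicate 3. Of the 7, ITGAX passed with each library left out in turn.

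**Figure D4:**
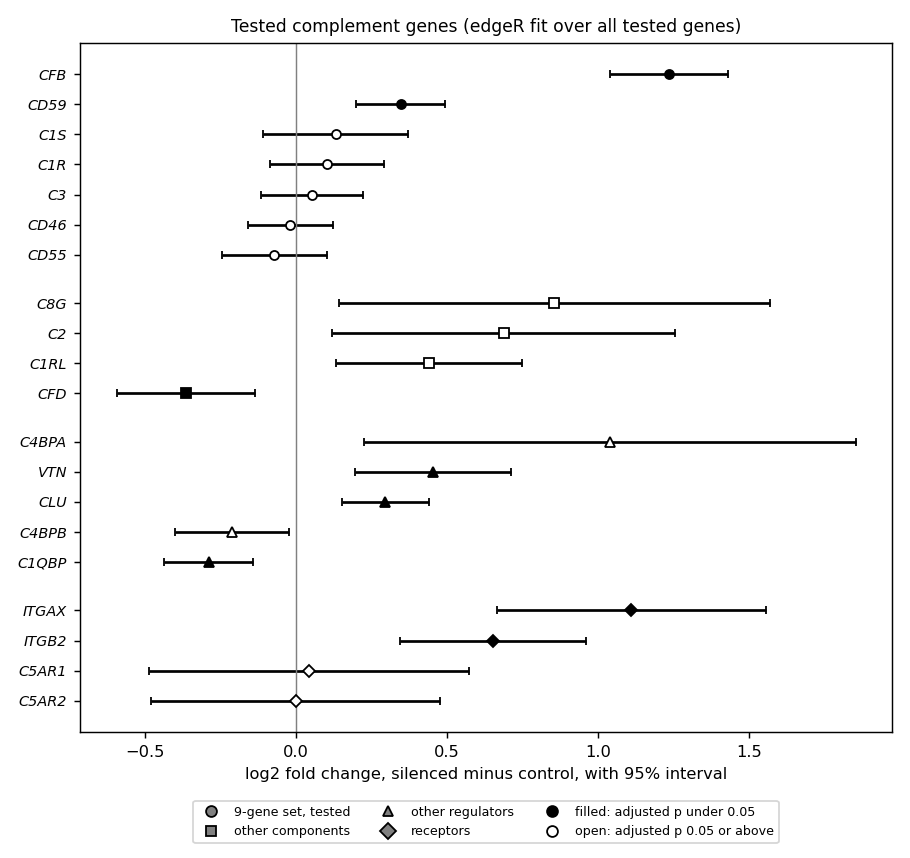
Log2 fold change, silenced minus control, of tested complement genes with 95% intervals from the edgeR fit; circles are the 9-gene set, squares other components, triangles other regulators and diamonds receptors, filled where the adjusted p was under 0.05. CFB (1.24) and ITGAX (1.11) are the filled points furthest to the right, and CFD (-0.37) and C1QBP (-0.29) are the filled points left of 0.

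Interleukin 6, interleukin 1, tumour necrosis factor and the interferons are known to raise the transcription of complement genes, CFB and C3 among them, through STAT, IRF, NF-kB and C/EBP factors. A list of 29 genes of these ligands, receptors and factors was therefore read in the same fit. Of 26 tested, 12 were higher and none was lower by edgeR, 22 had a positive log2 fold change, and the median was 0.29. For comparison, 8.75% of all tested genes were higher. At an unadjusted p under 0.05, 13 of the 26 passed, against 4894 of all 15250 tested genes. C3 did not pass (log2 fold change 0.051), and the list was chosen with earlier results of these data known. Whether the genes of this list had a part in the level of CFB was not tested.

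Of the ligands and receptors, IL6 had 5.96, 9.501 and 9.16 CPM in the control and 15.8, 13.5 and 14.3 CPM in the silenced libraries, with no overlap and a log2 fold change of 0.81 (SE 0.169, edgeR adjusted p = 0.00975). Its receptor IL6R had 17.3, 16.4 and 18.03 CPM in the control and 26.9, 25.3 and 23.7 CPM in the silenced libraries, a log2 fold change of 0.55 (edgeR adjusted p = 0.00474). OSMR, the receptor of oncostatin M, rose from 284 ± 9.93 to 361 ± 5.22 CPM (SD, n = 3, log2 fold change 0.35, edgeR adjusted p = 0.00529). The interferon receptor chains IFNGR1 and IFNAR2 rose by 0.55 and 0.44 on the log2 scale, although IFNGR1 did not pass without control replicate 3 (adjusted p = 0.0559) and IFNAR2 did not pass without silenced replicate 1 (adjusted p = 0.0670).

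Of the factors inside the cell, the kinase JAK1 rose from 229 ± 29.98 to 315 ± 11.3 CPM (SD, n = 3, log2 fold change 0.46, edgeR adjusted p = 0.00834). IRF1, a transcription factor that interferon induces and that binds ISRE-like sites, had 32.3, 35.2 and 35.9 CPM in the control and 48.2, 50.5 and 47.4 CPM in the silenced libraries. The groups of IRF1 did not overlap, and its log2 fold change was 0.50 (SE 0.0801, edgeR adjusted p = 0.00266). STAT2 rose by 0.40 on the log2 scale (edgeR adjusted p = 0.0157). The NF-kB genes NFKB1, NFKB2, RELA and RELB and the inhibitor NFKBIA lay between -0.14 and 0.13 on the log2 scale, and none of them passed. CEBPB (0.12) and CEBPD (-0.092) did not pass either. These NF-kB and C/EBP genes were picked after their values were seen.

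**Figure D5:**
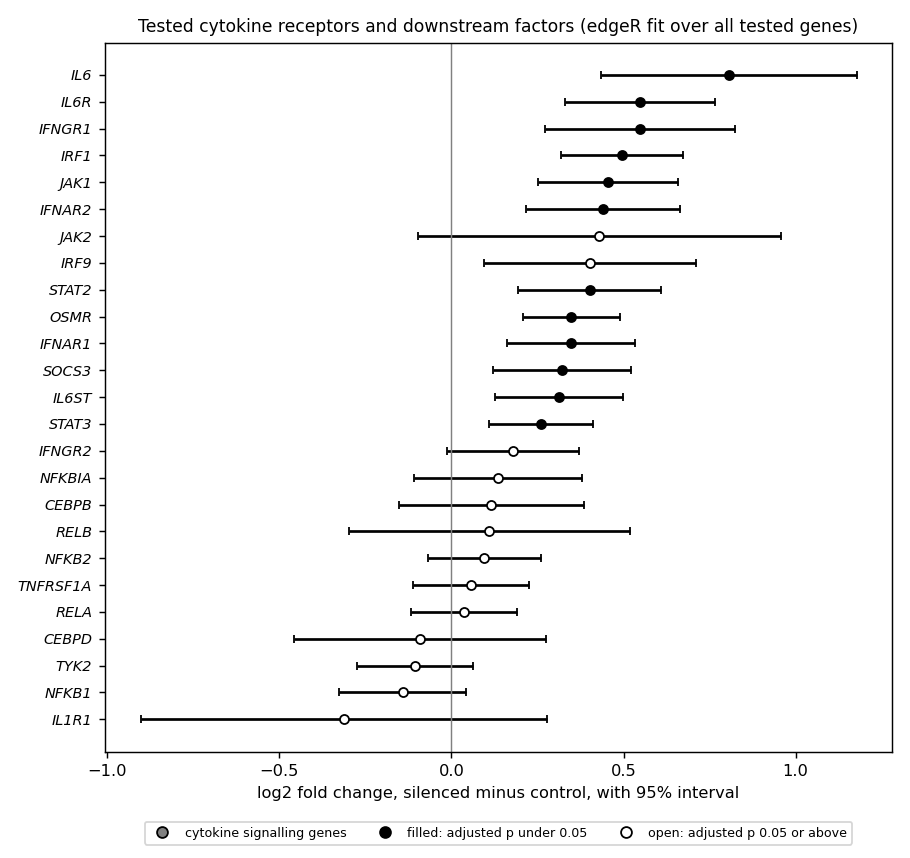
Log2 fold change, silenced minus control, of tested cytokine, receptor and transcription factor genes with 95% intervals from the edgeR fit, filled where the adjusted p was under 0.05. The filled points, from STAT3 (0.26) to IL6 (0.81), all lie right of 0, and the NF-kB genes lie close to 0 with open points. STAT3 passed under only 8 of 14 alternatives, with an edgeR adjusted p of up to 0.0728 when a library was left out.

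Genes listed for the acute-phase response of liver cells, in which C3 and CFB also take part, were mostly absent. Of 20 listed, 10 had 0 counts in all libraries and 2 were tested, LCN2 (log2 fold change -0.13) and SAA1 (-0.088). Neither passed in edgeR or DESeq2, or at an unadjusted p under 0.05. Of 8 hepatocyte markers none was tested, and APOA2, F9 and TTR, which is also on the acute-phase list, were at 0. The summed level of the 8 markers was 0.0864 to 0.206 CPM in the control and 0.370 to 1.27 CPM in the silenced libraries. Of 10 fibroblast and endothelial markers 3 were tested and none passed in edgeR (CDH5 had an unadjusted p under 0.05, and an adjusted p of 0.0443 with the replicate block), with a summed level of 30.7 to 36.2 CPM in the control and 33.1 to 42.5 CPM in the silenced libraries.

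Since CD55 and CD59 reach the surface on a GPI anchor, the genes that build and attach it were read as well. Of 24 tested, 2 were lower and none was higher, a share close to the 8.27% of all tested genes that were lower, so that the counts show nothing particular to these genes. DPM2, a subunit of the enzyme that supplies mannose, had 72.4, 68.9 and 80.05 CPM in the control and 48.7, 50.1 and 51.1 CPM in the silenced libraries (log2 fold change -0.56, edgeR adjusted p = 0.00141). PIGB, a mannosyltransferase, fell from 17.3 ± 1.36 to 11.7 ± 0.740 CPM (SD, n = 3, log2 fold change -0.56, edgeR adjusted p = 0.00956). PIGA, a subunit of the enzyme of the first step, had a log2 fold change of 0.33 (edgeR adjusted p = 0.0573, or 0.0443 with the replicate block). The median over the 24 was -0.049.

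Genes were also ranked by how closely their log2 CPM followed that of C3, CD59 or CFB over the 6 libraries, among 12128 genes with at least 50 counts on average. CFB was added to this ranking after its values were seen. For C3 the closest were NFKBIZ (r = 0.985), DAGLB (0.980) and TTN-AS1 (0.980), and 84 genes had r over 0.9. For CD59 they were CDC40 (0.998), RABGEF1 (0.997) and SRGAP2B (0.996), and for CFB LINC00673 (0.999), MBNL2 (0.999) and KLF6 (0.997). For CD59 and CFB, 879 and 1038 genes had r over 0.9. Since CD59 and CFB differ between the groups, any gene that differs in the same direction scores highly, and the 6 points share their libraries and depth.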

How the data were processed

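The authors mapped Ion Proton reads and counted them per gene with MapSplice, and the deposited table holds these counts without normalization for 40173 genes. The labels name GRCh37 as genome build, while the handling of strand and of reads with several matches is not given in the sources used here. All columns were assigned to a sample by their labels. The counts were compared with the quasi-likelihood test of edgeR 4.0.16 (R 4.3.3) after filterByExpr and TMM scaling, and p-values were adjusted by the Benjamini-Hochberg method over 15250 genes. The SE was taken from the log2 fold change and the root of its F statistic. CPM is a count scaled to the TMM-adjusted library size, and intervals are at 95%. The script was tested on simulated data. Libraries of the same group were further apart than sampling noise (chi-square per degree of freedom 3.92 to 26.8).

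The members and the lists were chosen with earlier results of these data known. Named were all members, called list genes (at most 8 per list, by lowest adjusted p), the 3 genes most like C3 and CD59, and genes said to be picked after their values were seen. Deviations from the group means correlated between samples with the same replicate number at 0.184, 0.277 and 0.101. Between samples with different numbers the values ran from -0.193 to 0.0522. Deviations cancel out within a group, so that these values are not independent. As a reading of the data and not of the labels, the numbers served as a block in an alternative fit. The main fit did not pair the samples. The study's supplementary count table numbers the silenced replicates in another way, so that the block rests on the deposited numbering alone.

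Locations and exon lengths came from GENCODE 29 on GRCh38, and promoters from RefSeq. C3 and C1S had no promoter entry. Alternatives were an adjusted p under 0.01, DESeq2 1.42.0, RLE factors, library size only, other filters, thinning, the replicate block and each library left out. Some single genes on the lists are counted in the totals but are not reported here.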

Additional observations from a re-analysis of the deposited data

How the results depend on the processing

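CFB and CD59 passed under all 14 alternatives, with log2 fold changes of 1.15 to 1.29 and 0.32 to 0.38, and CFB alone kept a fold change over 2. With a library left out C3 ranged from -0.011 (without control replicate 1) to 0.12, and CD46 was 0.015 with library size only, neither of them past the test. The 7 calls among the other complement genes became 1 at an adjusted p under 0.01 and 2 to 6 with a library left out, and the 12 among the cytokine signalling genes became 5 and 8 to 11. Over all genes the 2595 calls became 903 at an adjusted p under 0.01. CFD also lost its call with DESeq2 (adjusted p = 0.0575) and with library size only (adjusted p = 0.0646). The cause of these changes was not tested. The replicate block raised the calls over all genes to 3449 and gave 9 among the other complement genes, 12 among the cytokine signalling genes and 3 among the GPI anchor genes. Of the 87 tested genes on all lists it changed the call of 5, namely C1RL, C4BPB, PIGA, KRT8 (adjusted p = 0.0481) and CDH5 (adjusted p = 0.0443), and of no other, and since the study's own table numbers the silenced replicates differently, these 5 gains may not reflect a true pairing. Depth limits C5 and CFI, at 22 counts or fewer in every library, and a leave-one-out fit of 2 against 3 libraries has fewer degrees of freedom.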
